A study of Mus musculus with 63 samples.

Results

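The 10 genes described here encode interferon-inducible GTPases of the mouse: Irgm1, Irgm2, Igtp, Iigp1, Tgtp1, Tgtp2, 9930111J21Rik1, 9930111J21Rik2 and Gm5431 of the immunity-related GTPase (IRG) family, and the very large GTPase gene Gvin1. They were taken by symbol from the 19220 genes of the deposited count table. They were chosen by their levels in these same libraries, which differed between strains, so the strain levels are given as a description with no test. All 10 were in the table, and all 10 were among the 16425 genes that passed the filter on low counts. RefSeq lists Irga6 as a synonym of Iigp1, Irgb6 of Tgtp1, Irgb5 of 9930111J21Rik2 and Irgb9b8 of Gm5431.

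Interferons act through cell-surface receptors and the JAK kinases. The promoters of their target genes hold gamma-activated sites, read in the response to interferon gamma, and interferon-stimulated response elements, bound by factors such as IRF1. IRG proteins made in response gather on the membrane of vacuoles that hold parasites such as Toxoplasma gondii and break it open. The products of Irgm1, Irgm2 and Igtp are regulators that sit on the cell's own membranes and keep the effector GTPases inactive there, and Irgm1 has also been linked to autophagy and to mitochondrial quality control. The IRG genes lie in clusters of duplicated copies and are known to be highly polymorphic among mice.

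Heart RNA was sequenced from the inbred strains that founded the Diversity Outbred population, with the labels AJ, B6, 129, NOD, NZO, Cast, PWK and WSB, and 8 libraries per strain and 7 for Cast. Every mouse had eaten a diet rich in fat and sugar with 45% fat, so no group is without it. The labels used here give neither sex nor age. Beyond the identifiers, nothing says that libraries of a strain are separate mice, so p-values measure only the spread between these libraries. Libraries are named by strain and number, so AJ_3 is replicate 3 of AJ.

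Total estimated counts were 21.8 M to 42.9 M per library, with a median of 30.4 M. Each of the 63 libraries correlated best with the mean profile of its own strain, the lowest being WSB_1 with r = 0.385, and the next lowest library had r = 0.542. All 7 cardiomyocyte markers were detected in every strain, and their summed level was 36553 to 70453 CPM (counts scaled to a common library size), lowest in WSB_1. AJ_3, AJ_4 and NZO_5 lay above the other libraries of their strain for 10, 7 and 7 of the 10 genes (AJ_3 and AJ_4 set against the 6 AJ libraries besides them), and values that rest on them are given beside those of the other libraries. The reference genome GRCm38 was made from B6, and whether variants of the other strains cost them reads was not tested. In whole heart, fewer cells of a type and less RNA per cell cannot be told apart.

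The promoters of the IRG genes are shown because their response to interferon is read there. Promoters of 300 bases from RefSeq (GRCm38.p6), from 250 before to 50 after the annotated start, were searched for 8 of the 10 genes, without Iigp1 and Gvin1. The core of the interferon-stimulated response element, searched as GAAA, 2 bases of any kind and GAAA, occurred on either strand in 6 of these 8, against 3.44% of 32851 promoters. TTCNNNGAA, the core of the gamma-activated site, which reads the same on both strands, occurred in 4 of the 8, against 8.30%. Both occurred together in those 4, against 0.454%. The 80-base windows below run 5′ to 3′ on the gene's strand, and capitals mark the matches to either core.
Irgm1, chr11:48871400-48871479, minus strand: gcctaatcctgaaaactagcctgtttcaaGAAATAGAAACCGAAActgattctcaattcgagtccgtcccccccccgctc
Irgm2, chr11:58214878-58214957, plus strand: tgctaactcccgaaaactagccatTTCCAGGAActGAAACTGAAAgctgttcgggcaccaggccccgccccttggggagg
Igtp, chr11:58199487-58199566, plus strand: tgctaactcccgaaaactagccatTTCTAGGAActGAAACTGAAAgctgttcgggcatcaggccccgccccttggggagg
Tgtp1, chr11:48992279-48992358, minus strand: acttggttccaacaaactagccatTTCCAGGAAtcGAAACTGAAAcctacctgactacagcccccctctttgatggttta
Tgtp2, chr11:49064238-49064317, minus strand: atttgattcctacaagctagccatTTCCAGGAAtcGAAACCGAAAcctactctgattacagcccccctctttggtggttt
9930111J21Rik1, chr11:48979332-48979411, minus strand: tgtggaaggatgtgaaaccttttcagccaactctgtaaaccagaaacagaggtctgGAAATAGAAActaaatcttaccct

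In Irgm1 a pair of response element matches overlapped, starting 30 and 24 bases before the annotated start. In Irgm2, Igtp, Tgtp1 and Tgtp2 a TTCNNNGAA match was followed after 2 bases by a response element match, which started 64, 34, 77 and 70 bases before the start. The windows of Irgm2 and Igtp were identical at 78 of 80 positions, and those of Tgtp1 and Tgtp2 at 56 of 80, aligned without gaps. Past the matches the Tgtp2 window holds an extra base, so later positions of this pair were compared out of register. The count of 56 therefore understates how alike they are. In 9930111J21Rik1 the match started 26 bases after the annotated start. Neither core was found in the promoters of 9930111J21Rik2 and Gm5431. In 9930111J21Rik2 the sequence that precedes the 9930111J21Rik1 match recurs, but close to the end of the 300 bases. A match in that place would run past the end, so the search could not find it. A match is a description of the B6 reference sequence, and binding was not measured here.

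All 10 genes are protein-coding, and 8 of them lie on chromosome 11 in 2 clusters (GRCm38, positions from the deposited annotation). The first holds, on the minus strand, Irgm1 (ENSMUSG00000046879, 48861968 to 48871683), Gm5431 (ENSMUSG00000058163, 48887422 to 48902152), 9930111J21Rik1 (ENSMUSG00000069893, 48946150 to 48979398), Tgtp1 (ENSMUSG00000078922, 48985327 to 48994172), 9930111J21Rik2 (ENSMUSG00000069892, 49015874 to 49051242) and Tgtp2 (ENSMUSG00000078921, 49057194 to 49064206). The other holds Igtp (ENSMUSG00000078853, 58199556 to 58207591) and Irgm2 (ENSMUSG00000069874, 58199618 to 58222782) on the plus strand, with gene models that overlap. Gvin1 (ENSMUSG00000045868) lies on the minus strand of chromosome 7, 106156556 to 106215326, and Iigp1 (ENSMUSG00000054072) on chromosome 18. Per kilobase of annotated exons, the mean level over strains was highest for Igtp (4.99 CPM per kb), Irgm2 (4.93) and Iigp1 (4.37). It was 3.09 CPM per kb for Tgtp2, 2.49 for 9930111J21Rik2, 2.39 for Irgm1, 2.01 for Gvin1, 1.70 for Tgtp1, 1.05 for 9930111J21Rik1 and 0.339 for Gm5431.

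Several of these genes share long stretches of sequence with a copy, and the way the authors' counting divided such reads is not given in the sources used here. Of the 50-base stretches in the transcripts of Gvin1, 99.2% also occurred in another gene, nearly all of them in Gm4070 (98.3%). The share was 86.6% for Tgtp2 and 81.2% for Tgtp1, mostly between the pair, 83.2% for 9930111J21Rik1, 59.8% for 9930111J21Rik2 and 37.3% for Gm5431. For Igtp it was 11.8%, all in Irgm2, and for Irgm2 7.83%. Iigp1 (1.69%) and Irgm1 (0.379%) were close to free of shared stretches. The levels of the genes with large shares are therefore uncertain one by one, and sums over copies are given beside them.

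**Figure D1:**
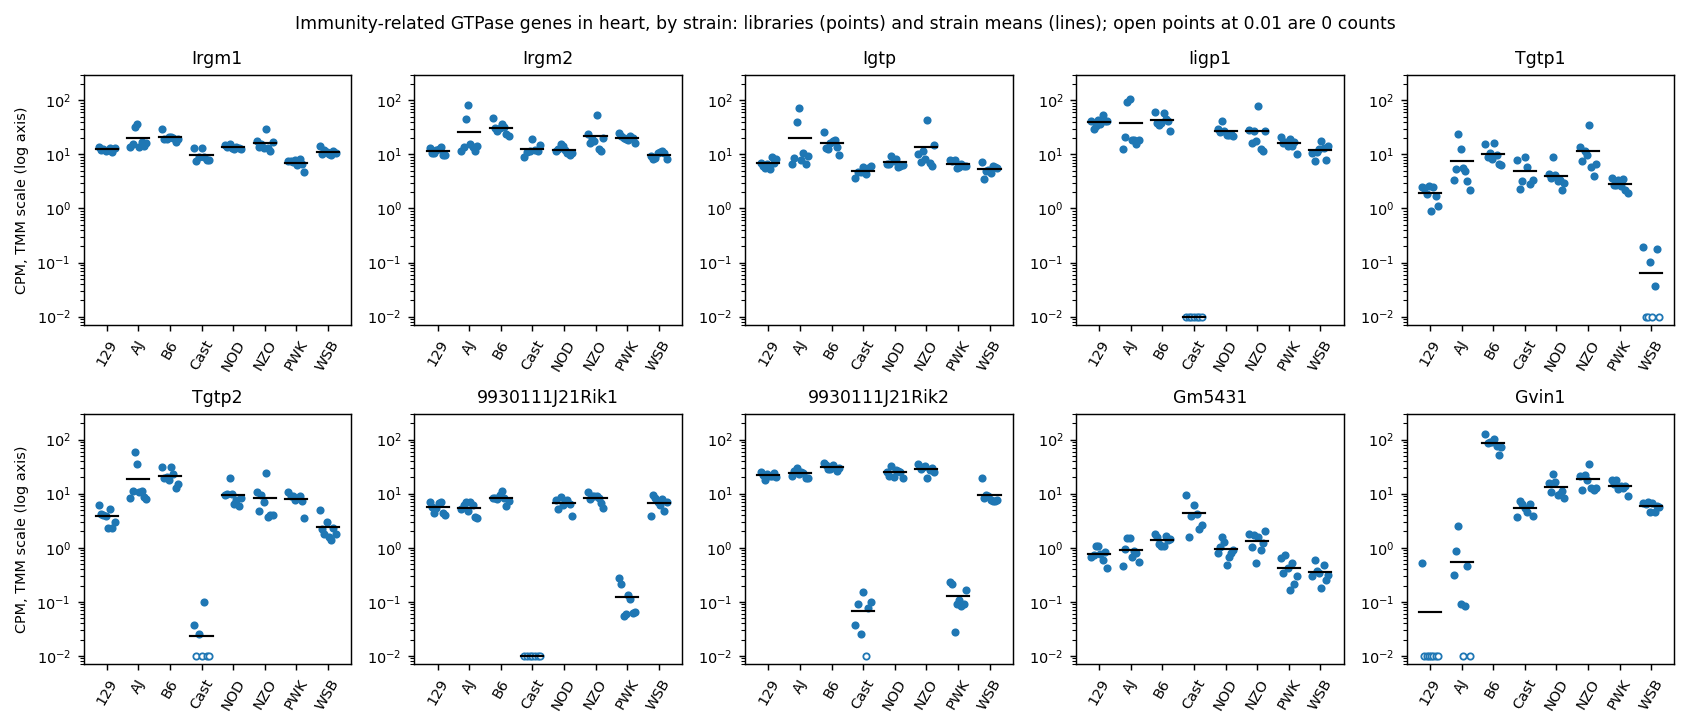
Levels of the 10 genes by strain. Each panel is 1 gene, the horizontal axis is the strain, the vertical log axis is CPM on the TMM scale, points are libraries, lines are strain means, and open points at 0.01 are libraries with 0 counts. B6 libraries lie highest for Gvin1 (51.0 to 128 CPM), all Cast libraries are at 0 for Iigp1 and 9930111J21Rik1, and AJ_3, AJ_4 and NZO_5 lie above their strains in most panels.

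Among the regulators, Irgm1 differed least between strains. Its mean was 20.8 ± 3.52 CPM in B6, 19.9 ± 8.89 in AJ, 16.4 ± 5.87 in NZO, 13.6 ± 0.998 in NOD, 12.4 ± 0.935 in 129, 11.2 ± 1.48 in WSB, 9.58 ± 2.37 in Cast and 7.0 ± 1.09 in PWK (SD, n = 8 each and 7 for Cast, as for all means by strain here). The B6 libraries ran from 16.9 to 28.9 CPM with a median of 19.9, and the PWK libraries from 4.65 to 8.08 CPM with a median of 7.36. The B6 and PWK libraries did not overlap, and each strain overlapped its neighbour in this order. The AJ mean rested on AJ_3 at 32.4 and AJ_4 at 35.9 CPM, while the other 6 AJ libraries lay between 13.9 and 16.7 CPM.

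Irgm2 shared the high level in B6 but not the low one in PWK. Its mean was 31.4 ± 7.79 CPM in B6, 25.8 ± 24.7 in AJ, 22.0 ± 13.6 in NZO, 20.4 ± 2.55 in PWK, 12.8 ± 3.27 in Cast, 12.2 ± 2.03 in NOD, 11.5 ± 1.5 in 129 and 9.73 ± 1.31 in WSB. The B6 libraries ran from 22.0 to 47.0 CPM (median 31.1), the PWK libraries from 16.5 to 24.9 (median 20.1) and the WSB libraries from 8.17 to 11.4 (median 9.85). By mean log2 CPM, PWK was thus last of the 8 strains for Irgm1 and next after B6 for Irgm2. The AJ and NZO means again rested on single libraries, with 44.7 CPM in AJ_3, 80.6 in AJ_4 and 54.2 in NZO_5, against at most 15.4 CPM in the other 6 AJ and 23.9 in the other 7 NZO libraries.

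Igtp, whose gene model overlaps that of Irgm2, had its highest mean in AJ at 20.3 ± 23.8 CPM, but a median there of 9.04, below the B6 median of 14.9. The mean was 16.0 ± 5.04 CPM in B6, 13.5 ± 12.1 in NZO, 7.12 ± 1.27 in NOD, 6.87 ± 1.23 in 129, 6.67 ± 0.913 in PWK, 5.39 ± 1.09 in WSB and 5.0 ± 0.892 in Cast. Without AJ_4 the AJ mean was 12.9 CPM, below that of B6. The B6 libraries ran from 9.95 to 26.0 CPM and the Cast libraries from 3.65 to 6.11, with no overlap. AJ_3, AJ_4 and NZO_5 lay at 40.4, 72.0 and 42.5 CPM.

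Iigp1, the effector best known for loading onto parasite vacuoles, was not detected in Cast. None of the 7 Cast libraries had a count, which allows up to 0.0145 CPM at a floor of 3 counts over the strain, so Cast lay at least 2010.1-fold lower than the other strains, which averaged 29.1 CPM. The mean was 42.9 ± 11.2 CPM in B6, 40.0 ± 7.25 in 129, 38.0 ± 38.2 in AJ, 27.3 ± 21.7 in NZO, 27.1 ± 6.36 in NOD, 16.3 ± 3.35 in PWK and 11.8 ± 3.41 in WSB. The AJ median was 18.8 CPM, less than its mean, because AJ_3 lay at 93.0 and AJ_4 at 106 CPM while the other 6 ran from 12.5 to 20.8. In NZO, NZO_5 lay at 78.5 CPM and the other 7 between 11.5 and 27.8. Apart from WSB and Cast, every pair of neighbours in the order of mean log2 CPM overlapped.

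Tgtp1 and Tgtp2 are neighbouring copies that encode near-identical effector GTPases, and the counts of the pair were divided in opposite ways in Cast and WSB. Tgtp1 averaged 4.96 ± 2.70 CPM in Cast and 0.0644 ± 0.0839 in WSB, where 4 of 8 libraries had no count and the others summed to 16 counts. Tgtp2 averaged 0.0231 ± 0.0365 CPM in Cast, with 5 counts over all 7 libraries, and 2.38 ± 1.19 in WSB. Every WSB library lay below all libraries of the other strains for Tgtp1, and every Cast library did so for Tgtp2.

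The share of the pair's counts assigned to Tgtp1 was 99.6 ± 0.624% in Cast, 57.8 ± 4.14% in NZO, 33.1 ± 5.72% in 129, 32.5 ± 2.00% in B6, 29.4 ± 2.55% in NOD, 28.8 ± 3.93% in AJ, 26.5 ± 4.22% in PWK and 2.12 ± 2.63% in WSB. Within strains it ran from 49.2% to 61.7% in NZO, from 26.6% to 42.1% in 129, the widest spread, and from 29.6% to 34.8% in B6. Summed, the pair averaged 31.7 ± 10.6 CPM in B6, 26.6 ± 25.6 in AJ, 20.2 ± 16.6 in NZO, 13.7 ± 6.14 in NOD, 10.9 ± 2.57 in PWK, 5.80 ± 1.88 in 129, 4.99 ± 2.71 in Cast and 2.45 ± 1.254 in WSB. Without AJ_3, AJ_4 and NZO_5 the sum averaged 13.7 ± 2.76 CPM in AJ (n = 6) and 14.7 ± 6.31 in NZO (n = 7), and without Cast_1, Cast_5 and Cast_6 2.97 ± 0.524 in Cast (n = 4). The sum was thus still lowest in WSB, with 1.41 to 5.24 CPM against 19.2 to 48.3 CPM in B6, and the range between these strain means was 13-fold. For Tgtp1 alone the range was 183-fold (NZO over WSB), and without NZO_5 it was 161-fold with B6 as the highest strain.

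The tandem genes 9930111J21Rik1 and 9930111J21Rik2, predicted IRG GTPases, had few or no counts in Cast and PWK. 9930111J21Rik1 had no count in Cast, at least 408-fold lower than the other strains together, and 0.123 ± 0.0838 CPM in PWK. In the other strains its mean was 8.34 ± 1.52 CPM in B6, 8.31 ± 1.61 in NZO, 6.86 ± 1.81 in WSB, 6.59 ± 1.60 in NOD, 5.6 ± 1.2 in 129 and 5.47 ± 1.33 in AJ. These 6 strains overlapped, and the PWK libraries, at 0.0544 to 0.279 CPM, lay apart from them.

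9930111J21Rik2 had 0.0688 ± 0.0514 CPM in Cast (14 counts in all) and 0.127 ± 0.0703 in PWK (35 counts). Its mean was 31.1 ± 3.51 CPM in B6, 28.5 ± 4.84 in NZO, 24.9 ± 4.52 in NOD, 23.6 ± 3.64 in AJ, 22.0 ± 2.25 in 129 and 9.53 ± 4.02 in WSB. WSB was intermediate, with WSB_1 at 19.3 CPM and the other 7 libraries at 7.33 to 9.60. In AJ, AJ_3 and AJ_4 lay at 30.0 and 22.8 CPM, against 19.3 to 26.3 in the other 6, and NZO_5 lay at 19.5 CPM, below the other 7 NZO libraries.

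Gm5431, the least abundant of the 10, had the reverse pattern in Cast, where it was highest at 4.32 ± 2.72 CPM. Its mean was 1.40 ± 0.271 CPM in B6, 1.34 ± 0.509 in NZO, 0.949 ± 0.353 in NOD, 0.910 ± 0.398 in AJ, 0.772 ± 0.227 in 129, 0.420 ± 0.206 in PWK and 0.356 ± 0.130 in WSB. Within Cast the libraries spread from 1.58 to 9.38 CPM, and Cast_1, Cast_5 and Cast_6 (9.38, 6.27 and 4.25 CPM) lay above the other 4. These 3 libraries were also highest for Tgtp1 (7.94, 9.11 and 5.86 CPM, against at most 3.42 in the other 4) and for Fkbp5, a glucocorticoid-induced gene (235 to 363 CPM, against 54.0 to 107). Neutrophil markers (4 of 4 detected) summed to 25.9 CPM in Cast_5 and 28.7 in Cast_6, but to 4.33 in Cast_1, where the Cast median was 4.91. The same 3 were the lowest of the 7 Cast libraries for endothelial markers (611 to 707 CPM, of a Cast range of 611 to 848), fibroblast markers (449 to 491, of 449 to 624) and macrophage markers (93.2 to 98.8, of 93.2 to 156). Without them Gm5431 averaged 2.58 ± 0.958 CPM in Cast (n = 4), still the highest strain mean, and Tgtp1 2.96 ± 0.518. The part of these differences in the levels was not tested.

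The neighbouring gene Gm12185 (RefSeq synonym Irgb2b1), which is not among the 10, overlaps 9930111J21Rik1 and Tgtp1 in its gene model and shares 9.55% of the 50-base stretches of 9930111J21Rik1. It was high in the strains where those tandem genes were near 0, with 8.31 ± 6.86 CPM in Cast and 4.85 ± 1.37 in PWK, and 1.39 ± 0.801 CPM or less in the other strains. In Cast_1, Cast_5 and Cast_6 it was at 13.9, 19.9 and 11.7 CPM, against 2.44 to 3.75 in the other 4 Cast libraries, whose mean of 3.17 ± 0.580 lay below that of PWK. Summed over the 4 genes, the level was 42.2 ± 5.02 CPM in B6, 38.9 ± 5.65 in NZO, 33.1 ± 6.36 in NOD, 31.0 ± 5.45 in AJ, 28.7 ± 2.99 in 129, 16.8 ± 3.41 in WSB, 12.7 ± 9.16 in Cast and 5.52 ± 1.56 in PWK. Without the 3 Cast libraries the sum was 5.82 ± 1.43 CPM in Cast. The sum thus left Cast and PWK lowest, with a range of 7.64-fold between B6 and PWK, against 61.0-fold without Gm12185.

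Gvin1, a very large inducible GTPase, had means that lay 1359-fold apart in B6 and 129, of which the 129 mean rests on 1 library. It averaged 87.7 ± 22.6 CPM in B6, where the 8 libraries ran from 51.0 to 128 CPM (median 87.6), 18.3 ± 8.25 in NZO, 14 ± 3.02 in PWK, 13.1 ± 4.84 in NOD, 5.96 ± 0.973 in WSB, 5.35 ± 1.35 in Cast, 0.543 ± 0.853 in AJ and 0.0645 ± 0.182 in 129. All 8 B6 libraries lay above every other library. In 129 all 13 counts were in 129_1, and the other 7 libraries had none. In AJ, 2 of 8 libraries had none and AJ_3 had the most, 2.52 CPM, without which the AJ mean was 0.261 CPM.

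Counts for its near-copy Gm4070 did not follow this order. Gm4070 was at 80.8 ± 19.9 CPM in B6, 76.8 ± 43.4 in AJ, 44.3 ± 7.65 in 129, 36.5 ± 11.9 in NZO, 32.5 ± 5.64 in PWK, 28.7 ± 10.01 in NOD, 19.4 ± 2.82 in WSB and 17.6 ± 3.19 in Cast. AJ and 129, the strains with the lowest Gvin1, were thus among the 3 highest for Gm4070, also without AJ_3 and AJ_4, where AJ averaged 54.2 ± 6.02 CPM. The sum of Gvin1, Gm4070, Gm8995, Gm8979 and Gm1966 was 205 ± 42.1 CPM in B6, 117 ± 58.6 in AJ, 96.8 ± 30.0 in NZO, 79.97 ± 25.9 in NOD, 72.2 ± 9.82 in 129, 71.8 ± 13.5 in PWK, 66.2 ± 7.55 in WSB and 54.7 ± 6.28 in Cast. Without AJ_3, AJ_4 and NZO_5 the sum was 87.1 ± 9.35 CPM in AJ and 88.4 ± 19.9 in NZO. Its range was 3.75-fold, and the B6 libraries (138 to 271 CPM) overlapped those of AJ, NZO and NOD (at most 240, 155 and 138 CPM). Gm8995, which varied least of these genes (39.3 CPM in AJ to 20.6 in PWK, 1.91-fold), is part of this sum and narrows its range. The range and the overlap were not computed for Gvin1 and Gm4070 alone.

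**Figure D2:**
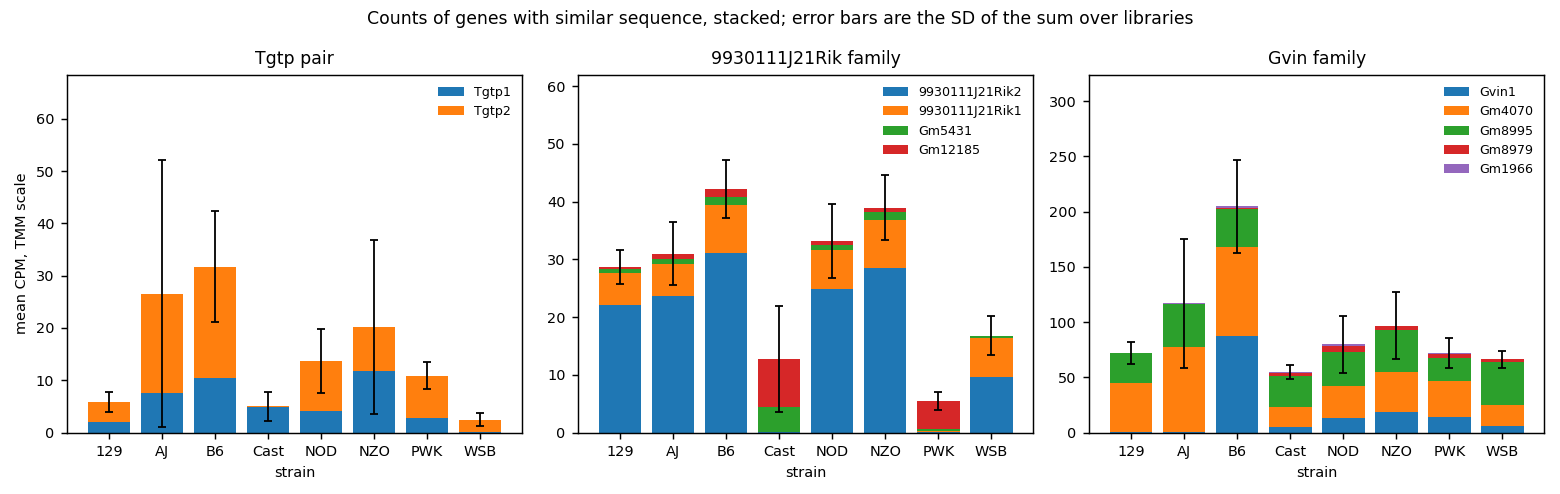
Mean levels of genes with similar sequence, stacked by strain. The vertical axes are mean CPM on the TMM scale and start at 0, colours are genes, and error bars are the SD of the summed level over the 7 or 8 libraries of a strain. Tgtp1 takes nearly all of the pair's counts in Cast and almost none in WSB, the 9930111J21Rik genes nearly vanish in Cast and PWK, and Gm4070 and Gm8995 carry the Gvin family's counts in 129 and AJ.

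Set beside all genes, the spread of the 10 was wide, as their choice implied. For all 10, the strain means of log2 CPM spanned 1 unit or more, as they did for 39.1% of the 16425 genes tested, and 89.4% of all genes differed among strains in edgeR's quasi-likelihood test. In mean log2 CPM, B6 was highest for 9 of the 10, and Cast for Gm5431. The lowest strain was Cast for Iigp1, Igtp, Tgtp2, 9930111J21Rik1 and 9930111J21Rik2, WSB for Irgm2, Tgtp1 and Gm5431, PWK for Irgm1, and 129 for Gvin1. Iigp1, Tgtp2 and 9930111J21Rik1 had every Cast library below all others, as 1.52% of genes did, Tgtp1 had every WSB library below (0.384% of genes) and Gvin1 every B6 library above (0.268%). Of the 70 pairs of neighbours in the strain orders, 61 had overlapping libraries, where 97.2% of such pairs did over all genes.

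In AJ and NZO, single libraries had several of these genes high together. NOD_3 was also the highest NOD library for each of the genes. It had 41.5 CPM of Iigp1 (the other 7 NOD libraries at most 29.4) and 15.3 of Irgm1 (at most 14.6). B6_1 was the highest B6 library for Iigp1, Irgm1, Irgm2, Igtp, Gvin1, 9930111J21Rik2 and Gm5431. Like these, AJ_3, AJ_4 and NZO_5 were singled out after their values were seen, so what follows is a description with no test. The regulators Irgm1, Irgm2 and Igtp, and the effectors Iigp1, Tgtp1 and Tgtp2, were above the rest of the strain in each of the 3 libraries. For Tgtp2 the values were 58.1 CPM in AJ_3 and 35.3 in AJ_4, against 8.08 to 11.2 in the other 6 AJ libraries, and 23.7 CPM in NZO_5, against 3.68 to 10.7 in the other 7 NZO libraries. For Tgtp1 they were 24.2 CPM in AJ_3 and 12.5 in AJ_4, against 2.23 to 5.56, and 35 CPM in NZO_5, against 3.93 to 14.

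The tandem genes and Gvin1 did not follow in all 3 libraries. 9930111J21Rik1 was at 6.91 CPM in AJ_3 and 4.86 in AJ_4, against 3.52 to 6.88 in the other 6 AJ libraries, and at 9.09 CPM in NZO_5, inside the range of the other 7 NZO libraries (5.54 to 10.9). Gm5431 was at 1.49 CPM in AJ_3 and 1.51 in AJ_4, against 0.462 to 0.949, but at 1.55 in NZO_5, inside the NZO range of 0.517 to 2.01. Gvin1 was at 0.0922 CPM in AJ_4, inside the range of the other 6 AJ libraries (0 to 0.888), and at 35.9 CPM in NZO_5, above the other 7 NZO libraries (11.7 to 22.4). WSB_1 was above the other 7 WSB libraries for 5 of the 10 genes and below them for 9930111J21Rik1, at 3.93 CPM against 4.85 to 9.44.

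**Figure D3:**
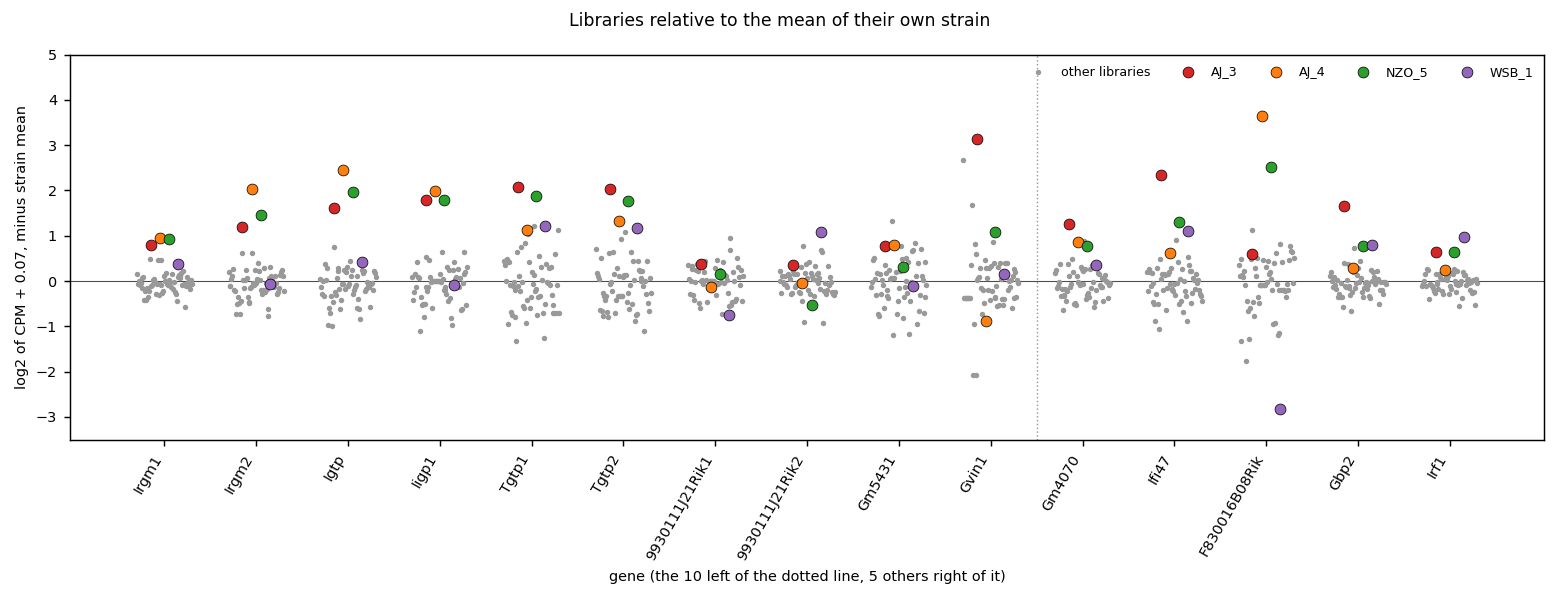
Levels of the 10 genes and 5 others relative to the mean of the library's own strain. The vertical axis is log2 of CPM + 0.07 minus the strain mean, the horizontal axis is the gene, grey points are libraries, and AJ_3, AJ_4, NZO_5 and WSB_1 are coloured. AJ_3, AJ_4 and NZO_5 lie above their strains for Irgm1, Irgm2, Igtp, Iigp1, Tgtp1 and Tgtp2, while for 9930111J21Rik1 and 9930111J21Rik2 they lie among the other libraries or close to them.

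Other interferon-induced genes were high in the same 3 libraries. These were chosen after their values were seen. The IRG gene Ifi47 was at 13.2 CPM in AJ_3 and 3.90 in AJ_4, against 1.19 to 3.10 in the other 6 AJ libraries, and at 7.64 CPM in NZO_5, against 1.63 to 4.46 in the other 7 NZO libraries. F830016B08Rik was at 24.9 CPM in AJ_3 and 203 in AJ_4, against 4.78 to 22.7, and at 29.8 CPM in NZO_5, against 2.20 to 7.90. Gbp2, of the guanylate-binding proteins, a related family of interferon-induced GTPases, was at 47.7 CPM in AJ_3 and 18.5 in AJ_4, against 10.2 to 14.6, and at 34.7 CPM in NZO_5, against 15.7 to 24.2. Gm4070, the near-copy of Gvin1, was at 164 CPM in AJ_3 and 125 in AJ_4, against 44.3 to 60.6, and at 59.5 CPM in NZO_5, against 23.4 to 44.7.

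Macrophage markers, all 7 of them detected, summed to 144 CPM in both AJ_3 and AJ_4, the top of the AJ range of 98.5 to 144. In NZO_5 they summed to 155 CPM, rank 2 from the top in NZO, where the median was 128 and the range 119 to 328. Of the 10 T and NK cell markers, 9 were in the table, and Ifng, the gene of interferon gamma, was not among them. The 9 summed to 2.12 CPM in AJ_3 and 1.72 in AJ_4, of an AJ range of 0.216 to 2.12 with a median of 1.71. In NZO_5 they summed to 3.97 CPM, again rank 2 in NZO, of a range of 1.57 to 4.24 (median 2.18). For the other cell types NZO_5 ranked 3 from the top (cardiomyocyte and neutrophil), 6 (fibroblast and B cell) or 7 (endothelial and adipocyte). AJ_3 was also the lowest AJ library for cardiomyocyte markers (50443 CPM, of a range up to 58680), the highest for adipocyte markers (45.04 CPM, of a range from 3.95) and had 120 CPM of B cell markers (AJ median 53.6). The part of these cells in the levels of these libraries was not tested.

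Irf1, the gene of an interferon-induced transcription factor, passed in none of the 8 contrasts of a strain with the mean of the other 7, with log2 fold changes between -0.22 in PWK and 0.23 in B6 (edgeR quasi-likelihood adjusted p of 0.0676 and 0.0751). Without WSB_1, where Irf1 stood at 31.0 CPM against at most 16.4 in the other WSB libraries, it passed in B6 (0.26, edgeR adjusted p = 0.0129). It also passed in B6 without AJ_3 (0.24, edgeR adjusted p = 0.0407) and without AJ_3, AJ_4 and NZO_5 (0.27, edgeR adjusted p = 0.0142), and in PWK without AJ_2, AJ_7 and AJ_8 (-0.24, edgeR adjusted p = 0.0467).

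The pathway lists, 89 measured genes that exclude the 10, had more genes higher than lower in B6 and NZO and more lower than higher in Cast. In B6, 53 were higher and 4 lower, where 17.5% and 14.7% of all genes were, with a median log2 fold change of 0.48. In NZO, 49 were higher and 9 lower (22.1% and 18.5% of all genes), with a median of 0.33. In Cast, 13 were higher and 56 lower (30.6% and 29.3%), with a median of -0.53. In AJ, 36 were higher and 9 lower (20.6% and 17.9%), but without AJ_3, AJ_4 and NZO_5 17 were higher and 10 lower. In WSB, 10 were higher and 37 lower (25.1% and 19.9%), in 129 14 and 23 (16.8% and 14.4%), in PWK 23 and 23 (27% and 26.7%) and in NOD 17 and 10 (19% and 13.5%). With Cast out of the reference, 129 had 7 higher and 38 lower, PWK 36 lower, NOD 11 higher and NZO 5 lower, and without AJ_3, AJ_4 and NZO_5 NOD had 26 higher. The shares over all genes hold for the test with all libraries and strains. They are not given for the alternatives, so whether the lists or all genes shifted there cannot be told. The medians over all genes lay between -0.01 in PWK and 0.02 in WSB.

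**Figure D4:**
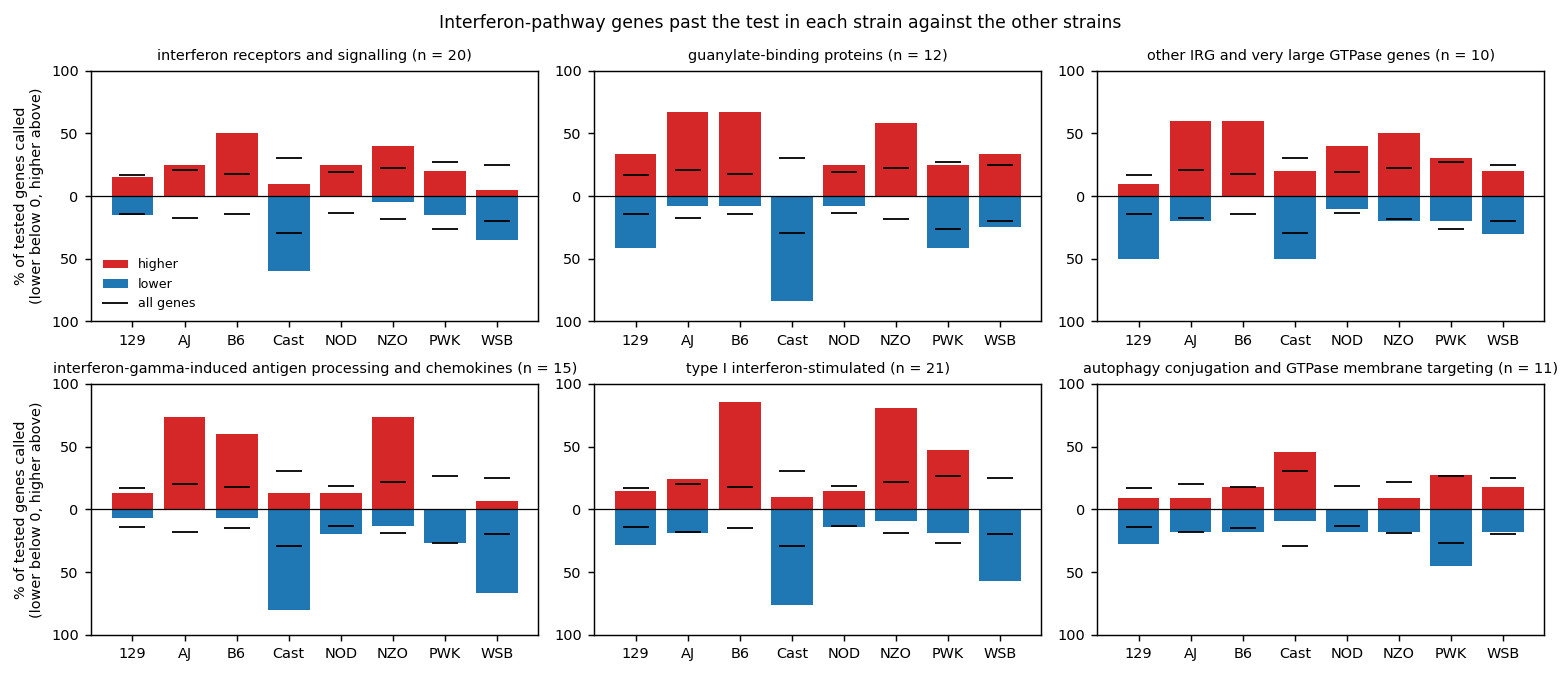
Share of each pathway list that passed the test in each strain against the mean of the other strains. The vertical axes are percent of the tested genes of a list, higher above 0 and lower below, and black ticks mark the share over all genes. For the 5 lists other than autophagy, bars reach beyond the ticks upward in B6 and NZO and downward in Cast. For the autophagy list, 2 of 11 genes were higher in B6, close to the tick, 1 of 11 in NZO, and 5 of 11 in Cast, beyond it.

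In Cast, where Iigp1 and Tgtp2 were at or near 0, genes of signalling, GTPases and stimulated targets were lower. Of 20 signalling genes 12 were lower and 2 higher, among them the interferon regulatory factor gene Irf7, at 1.12 ± 0.314 CPM against 5.65 in the other strains (log2 fold change -2.22 ± 0.21), Ciita, the MHC class II activator (-2.12 ± 0.34), and the feedback inhibitor gene Socs1 (-1.80 ± 0.44). Irf2 (0.29 ± 0.05) and Jak2 (0.20 ± 0.06) were higher, but Jak2 was at -0.10 without Cast_1, Cast_5 and Cast_6. Of 12 guanylate-binding protein genes 10 were lower and 2 did not pass, with Gbp10 at 0.132 ± 0.154 CPM against 4.64 (-4.38 ± 0.51). The symbol Gbp6 stands on 2 gene IDs, of which one had 7.01 ± 1.10 CPM in Cast against 49.3 in the other strains (-2.53 ± 0.23) and the other no count, at least 693-fold lower than in those strains.

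Among 10 other IRG and very large GTPase genes in Cast, 5 were lower and 2 higher. F830016B08Rik had 0.00467 ± 0.0124 CPM against 11.2 in the other strains, Gm4841 0.0273 ± 0.0509 against 1.35 and Gm4951 0.0131 ± 0.0253 against 0.565. The very large GTPase copies Gm8979 (2.37 ± 0.19) and Gm1966 (2.04 ± 0.52) were higher in log2 fold change, though their mean CPM in Cast (2.94 and 0.621) was close to that of the other strains (2.18 and 0.622), whose levels differ widely. Of 15 genes of antigen processing and chemokines 12 were lower, such as Cxcl10 (-2.43 ± 0.57), Cxcl9 (-2.29 ± 0.31) and B2m, the shared subunit of MHC class I (56.4 ± 8.78 CPM against 126, -1.10 ± 0.16). Ido1, a tryptophan-degrading enzyme (2.58 ± 0.23), and Psme1 (0.15 ± 0.06) were higher.

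Type I interferon-stimulated genes in Cast were lower in 16 of 21 and higher in 2. Ifi44 (0.0957 ± 0.0975 CPM against 3.97, -5.22 ± 0.35), Oas2 (-2.83 ± 0.24) and Oas1a (-2.50 ± 0.26) were lower, the last 2 being genes of oligoadenylate synthetases, which sense viral RNA. The antiviral GTPase genes Mx2 (7.90 ± 4.38 CPM against 3.06, 3.04 ± 0.15) and Mx1 (1.87 ± 0.19) were higher. The mean level of Mx1 was 1.87 ± 0.744 CPM in Cast (SD, n = 7), against 1.62 CPM over the other strains, whose levels differ widely. Of 11 autophagy genes 5 were higher and 1 lower, with Gabarapl1 (1.19 ± 0.11), Map1lc3b (0.60 ± 0.06) and Sqstm1 (0.53 ± 0.09) higher and Atg7 (-0.29 ± 0.05) lower. Without Cast_1, Cast_5 and Cast_6, Sqstm1 was at 0.04 in Cast and did not pass. All values are log2 fold changes ± SE with edgeR adjusted p between 5.44e-25 and 0.0144.

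Markers of fibroblasts, all 6 of them detected, were lowest in Cast and highest in NZO. They summed to 449 to 624 CPM in Cast, below all libraries of the other strains (708 or more), and to 1069 CPM or more in NZO, above all libraries of the other strains. In B6 they summed to 713 to 803 CPM, and the B6 median of 762 CPM was the lowest after that of Cast (575). Endothelial markers (7 of 7 detected) summed to 611 to 848 CPM in Cast, 746 to 887 in B6 and 779 to 920 in NZO. Macrophage markers summed to 93.2 to 156 CPM in Cast, 133 to 148 in B6 and 119 to 328 in NZO. The T and NK cell markers in the table summed to 0.333 to 0.722 CPM in Cast, 1.09 to 1.92 in B6 and 1.57 to 4.24 in NZO. None of the markers in the table was at 0 in all libraries of a strain. The part of these cells in the levels was not tested.

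In NZO, type I interferon-stimulated genes were higher in 17 of 21 and lower in 2. Mx1 was at 6.19 ± 1.96 CPM in NZO against 1.00 in the other strains (log2 fold change 3.83 ± 0.15), and Oas3 (1.63 ± 0.31) and Rsad2, the antiviral gene of viperin (1.2 ± 0.12), were higher too. Mx2 had no count in the 8 NZO libraries, at least 343-fold lower than the 4.19 CPM of the other strains, and Xaf1 (-0.37 ± 0.12) was lower. Of 12 guanylate-binding protein genes 7 were higher and 5 did not pass, with log2 fold changes of 1.29 ± 0.26 for Gbp10 and of 2.48 ± 0.44 and 0.93 ± 0.16 for the 2 Gbp6 IDs. The fold change sets a strain against the mean of the log levels of the others, and for the first of these IDs, which had no count in Cast, the mean in NZO (5.90 CPM) was below that of the other strains (9.17 CPM). Gbp10 was at 4.82 CPM in NZO against 3.96. Of 15 antigen processing and chemokine genes 11 were higher and 2 lower: Cxcl10 (1.65 ± 0.33), Cxcl9 (1.21 ± 0.20) and the complement inhibitor gene Serping1 (131 ± 40.4 CPM against 75.7, 0.82 ± 0.06) were higher, and Ido1 (-0.81 ± 0.32) and Psme1 (-0.18 ± 0.05) lower.

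Of the other IRG and very large GTPase genes in NZO 5 were higher and 2 lower, with Gm8979 (2.73 ± 0.17, with means of 3.66 CPM in NZO against 2.08), Gm4841 (2.66 ± 0.41) and Gm12250, known as Irgb10 (1.58 ± 0.28) higher and Irgq (-0.17 ± 0.07) and Gm4951 (-1.92 ± 0.50) lower. Of the signalling genes 8 were higher and 1 lower, among them Nlrc5, an activator of MHC class I genes (1.17 ± 0.24), Irf7 (1.07 ± 0.14) and Batf2 (1.01 ± 0.24), with Irf2 (-0.13 ± 0.05) lower. Of the autophagy genes 1 was higher, Sqstm1 (0.23 ± 0.09), and 2 lower, Atg16l1 (-0.10 ± 0.04) and Gabarapl2 (-0.09 ± 0.04). These are log2 fold changes ± SE with edgeR adjusted p between 3.60e-31 and 0.0486. Without AJ_3, AJ_4 and NZO_5, 44 of the 89 list genes were higher in NZO and 8 lower, and Sqstm1, Irf2 and Gabarapl2 did not pass. With Cast left out of the reference, Ido1 (-0.45, edgeR adjusted p = 0.287), Atg16l1, Gabarapl2 and Irf2 did not pass in NZO. Gabarapl2 did not pass either with DESeq2-type (RLE) size factors (edgeR adjusted p = 0.0535), with no filter on low counts (0.0640), without AJ_3 (0.0531) or without AJ_2, AJ_7 and AJ_8 (0.0623), and without Cast_1, Cast_5 and Cast_6 both it (0.0669) and Irf2 (0.0508) did not.

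Among genes that are not of the 10, those most like Irgm1 across the 63 libraries, after the strain mean of log2 CPM was subtracted, were Irf9 (Pearson r = 0.79), Nlrc5 (0.78), B2m (0.74), Gbp7 (0.74) and Parp14 (0.74). AJ_3, AJ_4 and NZO_5 are among these points, and the libraries of a strain share its mean. Over the 8 strain means, the genes most like Irgm1 were Bcl11b (0.97), Ube2e2 (0.97), Crcp (0.97), H2-Q4 (0.96) and Map2 (0.96). For Gvin1 they were Akr1c19 (0.97), Tmem110 (0.91), Fam210b (0.91), Lipt2 (0.89) and Tmem100 (0.88). These values come from a search over all genes and carry no test.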

How the data were processed

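The authors deposited expected counts per gene (estimated counts, of which 18.4% were not whole within 1e-06), on GRCm38 per the submitters' processing notes. The aligner, like the counter, was not given in the sources used here. Listed in the count table are 19220 genes, each above 0 in at least 32 libraries. A deposited table on the log2 scale, variance-stabilised by the authors, whose processing notes name DESeq2, served only as an alternative. Gene positions came from the deposited annotation, exon lengths and 50-base stretches from GENCODE M21, and promoters from RefSeq GRCm38.p6, whose table did not list Iigp1 and Gvin1.

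Counts were rounded, filtered with filterByExpr (minimum count 10, 16425 genes left), scaled by TMM and tested with edgeR 4.0.16 (quasi-likelihood, robust, R 4.3.3, limma 3.58.1) at a Benjamini-Hochberg adjusted p under 0.05 over all genes. A strain was set against the mean of the other 7. The SE of a fold change was derived from its test, as the absolute log2 fold change over the square root of the F statistic. A planned test of differences between libraries of a strain is not reported here. CPM were computed from the rounded counts on the TMM scale, and log2 CPM used a prior count of 2. The depth of 21.8 M to 42.9 M counts per library sets the precision, and a floor of 3 counts per strain covers counting error only. DESeq2 1.42.0 was an alternative. On simulated data the strain test recovered 91% of genes changed by 0.5 log2 and 100% of those changed by 1 in B6, with 17 false calls among 15473 unchanged genes. That simulation tested 15673 genes, with 100 changed at each size, whereas 89.4% of genes in the real data differed among strains. Its rates therefore need not hold for the real data. Recovery was not split by gene level, so it is not known for weakly expressed genes such as Socs1, Cxcl10 and Oas3. Tables and figures were made with Python 3.11.15, pandas 2.3.3, numpy 2.4.6, matplotlib 3.10.9 and the R package data.table (version 1.17.8).

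The members and lists were chosen with earlier results of these data known. Named besides the 10 genes were Irf1, for each list up to 3 genes per direction with the largest fold change past the test in the 2 strains with the most calls over all lists (Cast and NZO), and the 5 genes most like Irgm1 or Gvin1. Genes named for a copy of a member or in a stand-out library were chosen after their values were seen. Alternatives were other size factors, the variance-stabilised values, DESeq2, other filters, a replicate block, libraries left out, Cast left out of the reference and a prior count of 0.5.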

Additional observations from a re-analysis of the deposited data

Results flagged for a closer look

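A group was a gene in the libraries of a strain. Of the 80 groups, those with no spread or with under 10 counts in every library were not tested. In 18 of the rest, the highest or lowest library lay far from the others by Dixon's test. By chance that test flags about 1 in 20 groups. The groups are not independent, since 1 library can be high for several genes. NZO_5 was the high library for 7 of the 10 genes. It had 78.5 CPM of Iigp1 (the other 7 NZO libraries at most 27.8), 30.1 of Irgm1 (17.5), 54.2 of Irgm2 (23.9), 42.5 of Igtp (14.9), 35 of Tgtp1 (14), 23.7 of Tgtp2 (10.7) and 35.9 of Gvin1 (22.4).

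NOD_3 had 41.5 CPM of Iigp1 (the other 7 NOD libraries at most 29.4), 8.78 of Tgtp1 (4.29) and 19.2 of Tgtp2 (9.89). Its B cell markers summed to 185 CPM, the highest in NOD, where the median was 21.2. Its macrophage markers were also the highest in NOD (142 CPM, median 124), and its cardiomyocyte markers the lowest (53848 CPM, median 57929). Its T and NK cell, neutrophil and adipocyte markers ranked 2 from the top in NOD, fibroblast markers 3 and endothelial markers 5. WSB_1 had 14.5 CPM of Irgm1 (the other 7 WSB libraries at most 11.9), 5.05 of Tgtp2 (2.99) and 19.3 of 9930111J21Rik2 (9.60), and its cardiomyocyte markers were the lowest of all libraries. Its endothelial markers (1294 CPM, WSB median 840) were the highest of all libraries. Its fibroblast, T and NK cell and adipocyte markers ranked 1 from the top in WSB, B cell markers 2, macrophage markers 4 and neutrophil markers 6. AJ_3 had 24.2 CPM of Tgtp1 (the other 7 AJ libraries at most 12.5) and 2.52 of Gvin1 (0.888). The remaining 3 were Irgm1 in B6_1 at 28.9 CPM (the others at most 21.4), Irgm1 in PWK_9 at 4.65 CPM (the others at least 6.50) and Gvin1 in 129_1 at 0.516 CPM (the others at 0). The part of marker levels in these values was not tested.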

How the results depend on the processing

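Of 667 values for named genes of the lists and Irf1 under alternatives, 640 kept their direction and side of the threshold. Leaving out AJ_3, AJ_4 and NZO_5, with or without WSB_1, was chosen after seeing the data, as were the levels given without single libraries or without Cast_1, Cast_5 and Cast_6. Over all settings that left libraries out, 17 to 39 list genes were higher in AJ and 20 to 29 in NOD, and the lower ones in AJ reached down to 5 (without AJ_2, AJ_7 and AJ_8). The lowest AJ count and a NOD count of 26 came without AJ_3, AJ_4 and NZO_5, and AJ had 23 higher without AJ_3 alone. With only genes of a mean log2 CPM of at least 1, the genes higher numbered 8 in 129, 23 in AJ, 8 in Cast and 9 in NOD. That filter also removed weakly expressed list genes, and the number of list genes left is not given. A lower count under it therefore need not mean that genes failed the test. With Cast out of the reference, 129 had 7 higher and 38 lower, NOD 11 higher, NZO 5 lower and PWK 36 lower. Shares over all genes are not given for any of these alternatives, so the counts have no background beside them. The causes were not tested.

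Among values that had not passed the test, directions reversed with libraries left out for Irf1 in AJ (-0.0328 to 0.154), in WSB (-0.0794 to 0.156) and in Cast (-0.0023 without AJ_2, AJ_7 and AJ_8). Jak2 in Cast, which had passed, was at -0.0967 without Cast_1, Cast_5 and Cast_6.

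Replicate numbers did not pair the libraries: 199 same-number pairs had a median r of 0.05 (-0.16 to 0.38), 40 were over 0.1, and 14 libraries correlated best with their own number. With a replicate block, 14527 genes differed among strains, and list calls were 52 higher in B6, 49 higher in NZO and 56 lower in Cast. DESeq2 called 14851 genes among strains and edgeR without the filter 15893. With the authors' variance-stabilised values in place of log2 CPM, the range between the highest and lowest strain was smaller for all 10 genes, by more than the spread within strains for 8 of them. It was 4.80 against 9.96 for Gvin1, 3.95 against 9.33 for Iigp1 and lowest for Igtp, 1.06 against 1.63, so all 10 still spanned 1 unit or more. Genes with few counts limit the folds: with a prior count of 0.5 in place of 2, the log2 range between strain means was 11.7 for Gvin1 and 11.3 for Iigp1.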
